A study of Mus musculus with 12 samples.

Results

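The binding of the glucocorticoid receptor (GR) was examined around 5 genes that restrain cell division: the cyclin-dependent kinase inhibitors Cdkn1a, Cdkn1b and Cdkn1c and the antiproliferative genes Btg1 and Btg2. A GR peak belonged to a gene when its centre lay inside the gene's mm10 span or within 50 kb of it. The 5 genes are 5 of 21883 protein-coding genes, and the peaks around them fell into 30 of 47491 regions, a region being a stretch where peaks of 1 or more libraries overlapped. GR was immunoprecipitated from BWTG3 cells, a mouse hepatoma line, and the DNA was sequenced (ChIP-seq). All cells were starved for 24 h, and the stimulation lasted 3 h in total. The labels do not say whether the hour of TNF before Dex counts within the 3 h, so the time with Dex may have been shorter in TNFDEX than in DEX. The 3 TNFDEX libraries came from cells given 1000 U/ml recombinant tumour necrosis factor (TNF, an inflammatory cytokine) 1 h before 1 µM dexamethasone (Dex, a synthetic glucocorticoid). The 3 DEX libraries received 1 µM Dex alone and the 2 TNF libraries 1000 U/ml TNF alone, while the titles of the 3 NI libraries name neither agent. The series is about how TNF alters the binding of GR to DNA. It describes the replicates as biological, and all libraries come from the same hepatoma line. Peak lists hold no expression values, so the identity of the cells could not be checked against markers, and nothing here measures the expression of the 5 genes.

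Cdkn1a (p21), Cdkn1b (p27) and Cdkn1c (p57) form the CIP/KIP family, whose proteins bind complexes of a cyclin and its kinase and slow entry into S phase. Cdkn1a is the best known transcriptional target of p53, and Cdkn1c is an imprinted gene. Btg1 and Btg2 belong to the BTG/TOB family, small proteins that bind the CCR4-NOT deadenylase and slow growth. In the liver, glucocorticoids bind GR, which then enters the nucleus and binds DNA at glucocorticoid response elements or together with other factors.

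Each library had its own list of peaks, at a depth of 39228805 to 51141996 tags and with 2522 to 22589 nuclear peaks. Peak values are normalized tag counts: the authors counted the tags under each peak and expressed them per 20000000 tags of the library. The lists hold called peaks only, so nothing is known of the level at a position without a peak. Normalized tags in peaks on the mitochondrial genome put the libraries into 2 sets. They summed to 70983.1 to 108166.1 in 5 libraries (TNFDEX 2, TNFDEX 3, DEX 3, TNF 2 and NI 3) and to 1289.9 to 6953.2 in the other 6. The shortest list of 3 groups, TNFDEX, TNF and NI, came from the high mitochondrial set. The labels say nothing of these sets, and their part in a result was not tested except where a value within sets is given.

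Promoter stretches are shown because GR peaks reached into the bases just before a start site of Cdkn1a, Btg1 and Btg2. Each is the 250 bases before a start site on the gene's own strand, from RefSeq, build GRCm38.p6 (the coordinates of mm10), and capitals mark the bases inside a region with a GR peak. The upstream start of Cdkn1a, chr17:29090729-29090978 on the plus strand, lay largely inside such a region (201 of 250 bases), and the downstream start, chr17:29093519-29093768 on the plus strand, only at its edge (35 bases). Btg1, chr10:96616751-96617000 on the plus strand, had 68 bases inside, and Btg2, chr1:134079156-134079405 on the minus strand, had 5.
Cdkn1a, upstream start: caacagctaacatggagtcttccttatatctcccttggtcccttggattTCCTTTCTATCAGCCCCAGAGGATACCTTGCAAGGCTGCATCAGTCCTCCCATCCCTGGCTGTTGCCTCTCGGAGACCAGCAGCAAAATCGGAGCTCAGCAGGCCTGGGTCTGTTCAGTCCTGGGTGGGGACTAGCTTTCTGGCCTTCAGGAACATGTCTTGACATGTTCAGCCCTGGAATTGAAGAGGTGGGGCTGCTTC
Cdkn1a, downstream start: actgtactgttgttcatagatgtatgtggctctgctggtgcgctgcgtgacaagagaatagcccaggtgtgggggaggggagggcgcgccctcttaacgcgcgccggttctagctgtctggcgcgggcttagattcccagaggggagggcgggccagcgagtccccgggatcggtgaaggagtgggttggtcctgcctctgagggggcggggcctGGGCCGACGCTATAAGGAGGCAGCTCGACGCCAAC
Btg1: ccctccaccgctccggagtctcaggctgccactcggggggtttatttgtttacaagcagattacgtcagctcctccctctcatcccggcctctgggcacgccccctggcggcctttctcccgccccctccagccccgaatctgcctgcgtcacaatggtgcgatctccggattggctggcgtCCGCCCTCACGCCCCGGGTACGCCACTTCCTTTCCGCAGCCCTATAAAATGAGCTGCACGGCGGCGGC
Btg2: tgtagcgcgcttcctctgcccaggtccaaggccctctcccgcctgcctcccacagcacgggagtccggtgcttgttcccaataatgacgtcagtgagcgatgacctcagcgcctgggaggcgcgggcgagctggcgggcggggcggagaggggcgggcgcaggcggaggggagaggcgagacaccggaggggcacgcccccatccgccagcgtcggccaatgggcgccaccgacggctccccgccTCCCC
The table matched 4 of the 5 genes, with 5 start sites. Both strands of these 5 windows were searched for the GR monomer site AGAACA, the GR palindrome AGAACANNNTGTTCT, its looser form GNACANNNTGTNC, the AP-1 site TGANTCA and the NF-kB core GGNNTTNCC, the first of which lies inside the second. None of the 5 motifs occurred in any of the 5 windows, the Cdkn1b window at chr6:134920151-134920400 included. Among all 32851 promoters of the same length, 16.1% held the monomer site, 0.00913% the palindrome, 0.387% the looser palindrome, 6.75% the AP-1 site and 13.5% the NF-kB core. The windows were rich in G and C, at 73.2% for Btg2, 65.2% for Btg1, 64.4% for Cdkn1b, and 54.0% and 64.8% for the upstream and downstream starts of Cdkn1a, where the median promoter had 52.4%. The strongest GR sites of these genes lie outside the windows.

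The loci differed widely in how much GR they carried. The 30 regions held 67 peaks, of which 25 were at Cdkn1a in 10 regions, 4 at Cdkn1b in 2, 7 at Cdkn1c in 7, 15 at Btg1 in 4 and 16 at Btg2 in 7. Most regions rested on a single library: 19 of the 30 (63.3%) did so, as did 59.5% of all 47491 regions. The strongest peak of each locus reached 424.8 normalized tags at Cdkn1a, 84.2 at Btg2, 48.9 at Btg1, 14.9 at Cdkn1b and 14.5 at Cdkn1c. The weakest peak of a whole library lay between 5.4 and 6.6, and the peaks of Cdkn1b and Cdkn1c ranked between the top 41.0% and the top 87.0% of their lists. At least 1 region called in 2 or more libraries of the group was present at 3 of the 5 genes in TNFDEX, 3 in DEX, 0 in TNF and 2 in NI. Over all protein-coding genes that share was 39.5% in TNFDEX, 36.5% in DEX, 6.08% in TNF, where both libraries had to hold the peak, and 14.9% in NI. The counts over 5 genes are too small to set the genes apart from these shares.

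**Figure D1:**
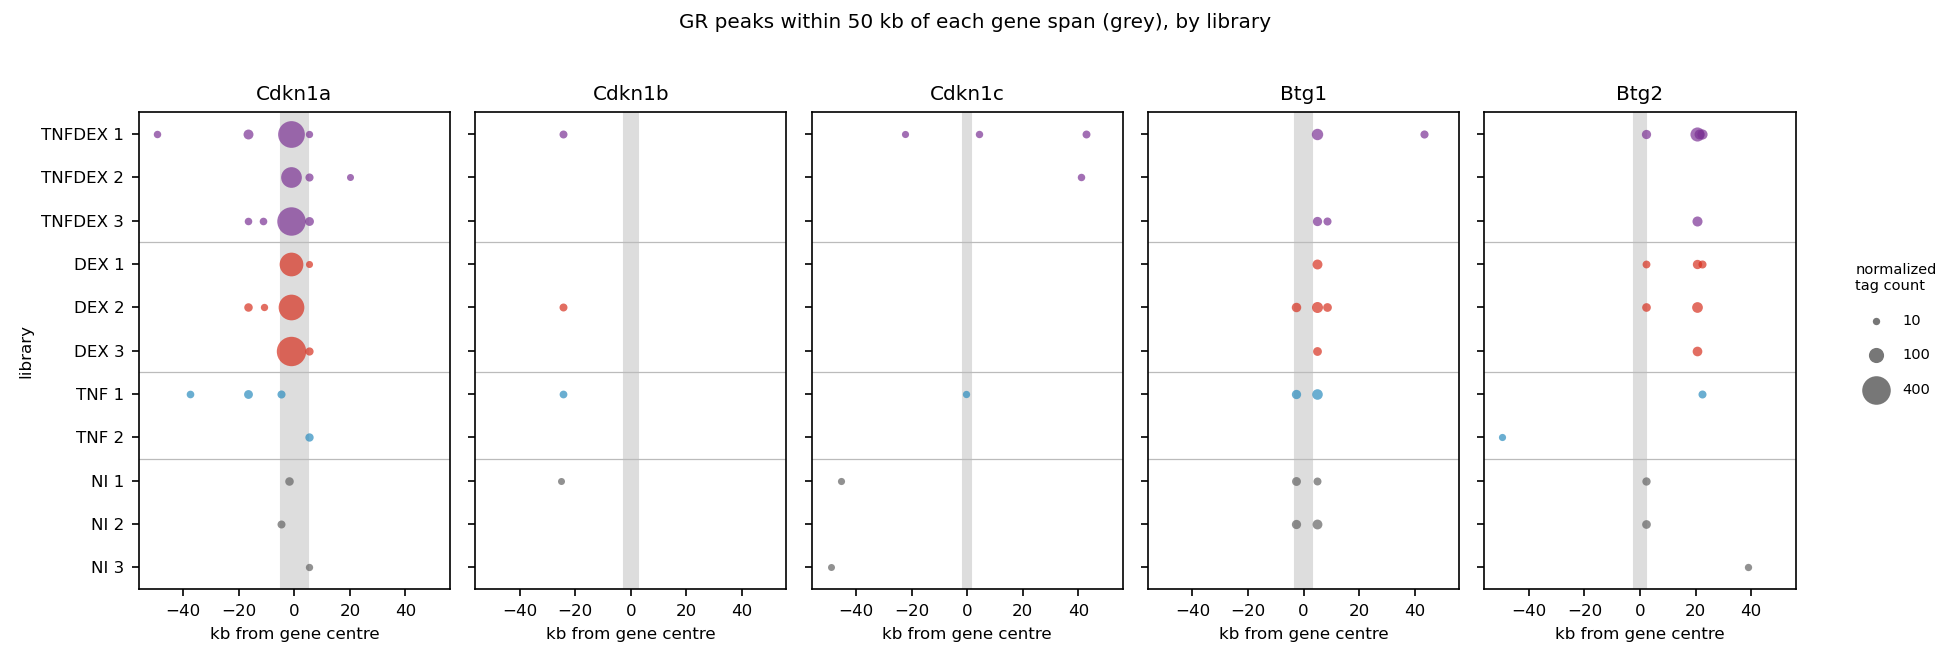
GR peaks around the 5 genes in each of the 11 libraries. The horizontal axis is the distance in kb from the centre of the gene span in the direction of rising coordinates, the grey band is the gene, each circle is a peak, and its area grows with the normalized tag count. The large circles inside Cdkn1a occur in the 3 TNFDEX and 3 DEX libraries and in no TNF or NI library, and Cdkn1b and Cdkn1c hold only small circles.

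Cdkn1a carried the strongest site of all 5 loci, and it was called in every library that received Dex. The site lies inside the gene at chr17:29094622-29094799, 0.94 kb downstream of the second start site. The gene itself spans chr17:29090979-29100722, and exons and introns were not separated because the gene table gives neither. The site held 348.0, 201.8 and 396.0 normalized tags in the 3 TNFDEX libraries and 270.7, 320.7 and 424.8 in the 3 DEX libraries. No peak was called there in either TNF library or in any NI library, so the libraries with Dex and those without did not overlap in calls. The share of all regions with this whole pattern is not given. Of regions with a peak in either group compared, 12.9% were called in every DEX and no NI library. In every TNFDEX and no TNF library 11.6% were called. The means were 315 ± 101 in TNFDEX and 339 ± 78.6 in DEX (SD, n = 3 each). Between 516 and 986 tags lay under each peak, and the 95% exact Poisson interval, which covers counting error only, was 184.8 to 220.0 for the lowest library (TNFDEX 2) and 398.7 to 452.1 for the highest (DEX 3).

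The Cdkn1a site stood near the top of every list that contained it. Ranked by normalized tag count it was number 44, 36 and 38 in the 3 TNFDEX lists and 28, 32 and 35 in the 3 DEX lists, which is within the top 0.195% to 0.417% of their peaks. The lists ranged from 8639 to 22589 peaks, so the ranks describe each list and do not measure a change. By the authors' own ratios, the peaks stood 33.48-fold to 70.63-fold over the input and 48.27-fold to 80.0-fold over the surrounding 10000 bp. The peak centres fell within 9 bp of each other in the 6 libraries, the smallest spread of any of these regions called in at least 3 libraries.

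Regions called in every library of one group and in none of another were counted beside the same share over all regions. Among the regions at the 5 genes with a peak in either group, 2 of 17 were called in every DEX and no NI library, against 12.9% of all such regions (3815 of 29557). The 2 were the Cdkn1a site and a site upstream of Btg2. Of the 3815, the Cdkn1a site was number 24 by mean DEX signal, and the Btg2 site was number 1316, with a median of 23.6 over them all. No region at these genes was called in every NI and no DEX library, as was 0.0237% of all regions. With TNF present in both groups, 1 of 24 regions, the Cdkn1a site again, was called in every TNFDEX and no TNF library, against 11.6% of all regions, and 0 in every TNF and no TNFDEX library, against 0.226%. The TNFDEX count became 2 without TNF 2, through a Cdkn1a region past the gene end, and also without TNFDEX 2, through the Btg2 site. No share over all regions is given for counts with a library left out. With all libraries kept, the shares are near the background and are not a result about the 5 genes as a set. The DEX and NI comparison kept 2 regions when any single library was left out. It kept the Cdkn1a site alone with a 10 kb window, with peaks at least 8-fold over the input and surroundings, and with an equal number of the strongest peaks from each library.

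For TNF alone the counts were too small to read. None of the 16 regions with a peak in TNF or NI was called in both TNF libraries and no NI library, where 0.566% of all regions were, and none in every NI and no TNF library, where 0.0439% were. With 2 TNF libraries these counts depend on each of them. Without TNF 2, 5 regions were called in TNF and not in NI and 5 in TNF and not in TNFDEX. Without TNF 1 each count was 1. Without NI 3, 1 region, over the Btg2 start, was called in NI and not in TNF. The shares over all regions use every library, so they are not the background of these counts, for which no share is given. Between the groups given Dex, 0 of 20 regions were called in every TNFDEX and no DEX library, against 0.663% of all regions, and 0 in every DEX and no TNFDEX library, against 0.0626%.

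The difference in signal at the Cdkn1a site between TNFDEX and DEX did not pass the test. Among 4022 regions called in all 6 libraries, limma on log2 normalized tag counts gave, after scaling over those regions, a log2 change of -0.29 (SE 0.23, adjusted p = 0.818), with a 95% interval of -0.81 to 0.24. Before this scaling, which used the trimmed mean of M values, the median of all 4022 regions was higher in TNFDEX by 0.14 on the log2 scale. Scaled to library totals alone the change was -0.14 (SE 0.54), and with a term for the mitochondrial set it was -0.36 (SE 0.20, adjusted p = 0.439 in limma). In the scaled normalized tag counts the site held 234.3, 315.0 and 321.5 in the 3 TNFDEX libraries and 370.1, 332.8 and 350.9 in the 3 DEX libraries. So scaled, every TNFDEX value lay below every DEX value. No share of the 4022 regions with such an order is given, so it is not a result about this site. Within the mitochondrial sets the order compares TNFDEX 1 with DEX 1 and DEX 2, and TNFDEX 2 and TNFDEX 3 with DEX 3. The deposited values overlapped, and in the low set TNFDEX 1 (348.0) lay above DEX 1 (270.7) and DEX 2 (320.7). TNFDEX 1 was the lowest of the scaled values, and without it the log2 change was -0.14 (SE 0.23, adjusted p = 0.797 in limma). The interval spans decreases and increases, so equal signal is not shown. By limma, 1 of the 4022 regions (0.0249%) passed at an adjusted p under 0.05 and 259 had an unadjusted p under 0.05. The Cdkn1a site was the 1 region of the 5 genes called in all libraries of this comparison, and with all libraries kept none qualified for the fits that involve NI or TNF. Without NI 3, the Btg1 site beyond the gene end qualified for DEX against NI and had a log2 change of -0.02 (SE 0.30, adjusted p = 0.967 in limma).

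**Figure D2:**
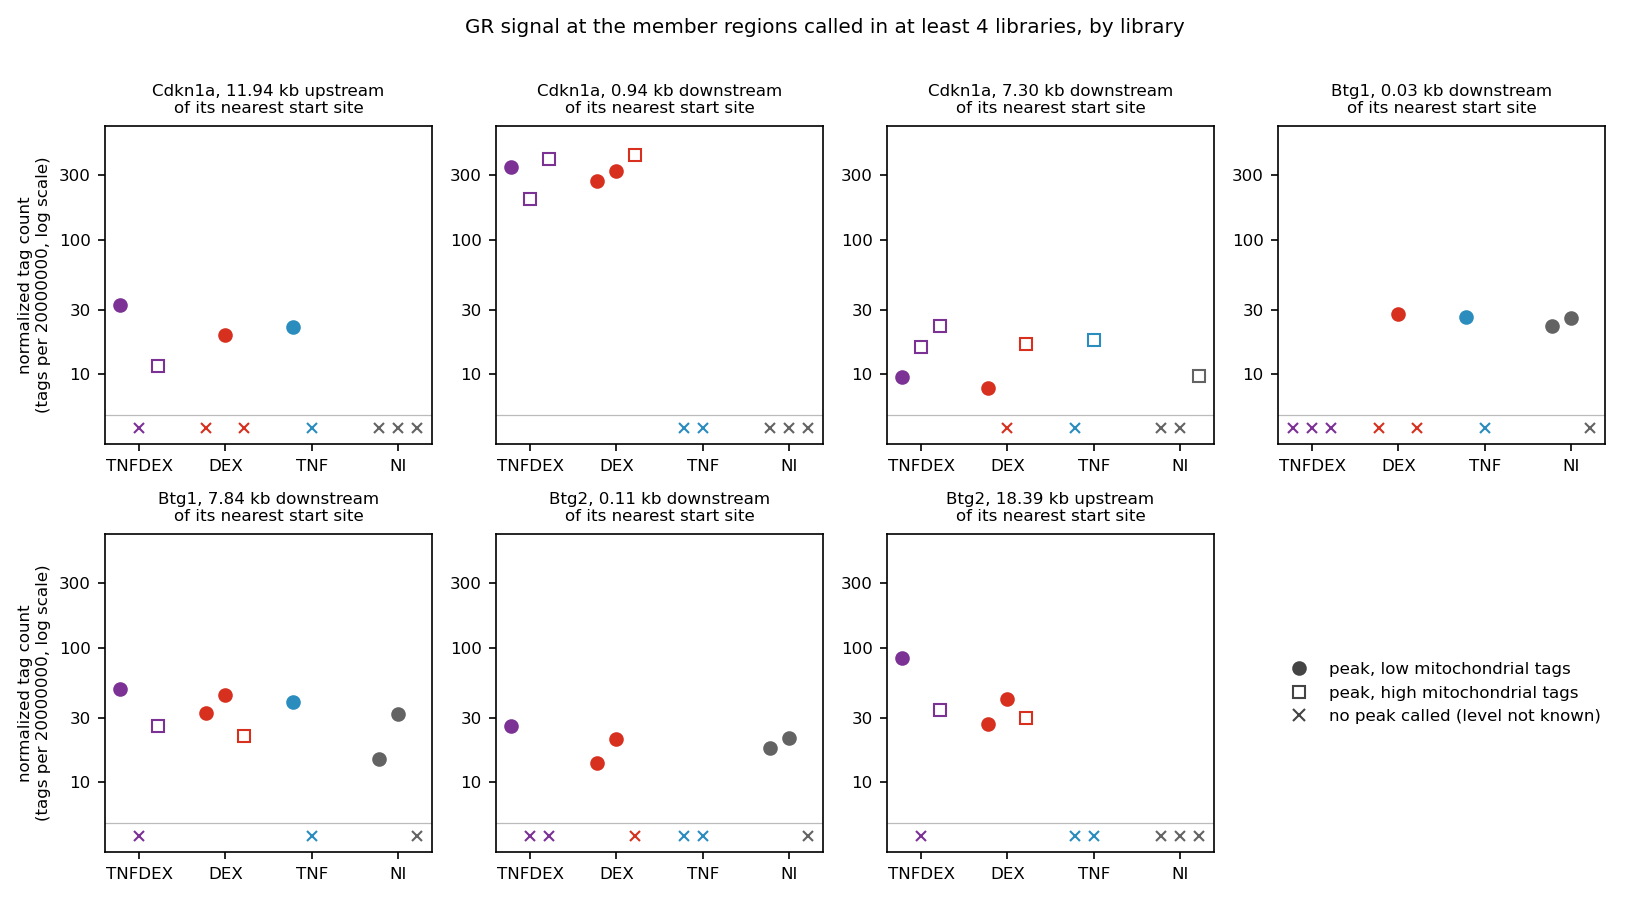
Normalized tag count (log scale) in each library at the 7 regions of these genes called in at least 4 libraries, with groups in the order TNFDEX, DEX, TNF and NI. Filled circles are libraries of the low mitochondrial set, open squares those of the high set, and crosses below the grey line libraries without a peak, whose level is not known. The Cdkn1a site 0.94 kb downstream of a start is the 1 panel where values lie above 200, and it has crosses in all TNF and NI libraries.

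Other GR regions at Cdkn1a were weak. A region 0.3 kb beyond the end of the gene, chr17:29100896-29101247, held 9.5, 16.0 and 22.6 normalized tags in the 3 TNFDEX libraries, 7.9 and 16.8 in DEX 1 and DEX 3, 17.9 in TNF 2, and 9.7 in NI 3. It was called in all 5 libraries of the high mitochondrial set and in 2 of the 6 of the low set. Among the 935 regions called in exactly 7 libraries, 2 (0.214%) included every library of the high set. Its peak centres were spread over 186 bp, the widest spread at these genes, and this pattern was picked out after its values were seen. Leaving out TNF 1 left a lone TNF library, with no spread of its own. Scaled over the 523 regions then tested, the log2 change of TNFDEX over TNF at this region was -1.58. The merged peaks were shifted against each other, and those of DEX 1 and DEX 3 did not overlap, so the values may describe different positions. Unscaled, the 3 TNFDEX values lay on both sides of the TNF 2 value. With both TNF libraries the region had no value in TNF 1, and the comparison could not be made.

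A second weak region lay 11.9 kb upstream of Cdkn1a, at chr17:29078944-29079144. It held 32.8 in TNFDEX 1, 11.5 in TNFDEX 3, 19.4 in DEX 2 and 22.3 in TNF 1, and none of the NI libraries had a peak there. The region over the upstream start site held 15.7 in TNF 1 and 15.0 in NI 2. The region over the downstream start site held 19.8 in NI 1. The remaining Cdkn1a regions were each called in 1 library, at 7.4 to 12.2 normalized tags. The window around Cdkn1a also contains Srsf3, a splicing factor gene, and Rab44, so a region there need not act on Cdkn1a.

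Cdkn1b and Cdkn1c had little GR. At Cdkn1b, a region 21.9 kb upstream, chr6:134898431-134898617, held 14.9 in TNFDEX 1, 14.8 in DEX 2 and 13.2 in TNF 1, with no peak in NI. It lies 0.3 kb from Gpr19, a gene for an orphan G protein-coupled receptor, and the other region of the locus, inside Gpr19, was called in NI 1 alone at 7.4. At Cdkn1c, every one of the 7 regions was called in a single library. TNFDEX 1 called 3 of them at 8.3, 10.4 and 14.5, TNFDEX 2 called 1 at 10.9, TNF 1 called 1 inside the gene at 9.6, and NI 1 and NI 3 called 1 each at 8.4 and 7.3. No DEX library had a peak within 50 kb of Cdkn1c. The peaks of these 2 genes held between 15 and 36 tags each, so their counting errors are large. TNFDEX 1 has the longest list of all libraries, and it supplied 3 of the 4 TNFDEX peaks at Cdkn1c and the single one at Cdkn1b.

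At Btg2 the main site lies upstream of the gene. It spans chr1:134097442-134097644, 18.4 kb upstream of the start at 134079155 and 13.7 kb from the neighbouring gene Chit1, which encodes a chitinase. It held 84.2 in TNFDEX 1 and 34.1 in TNFDEX 3 and was not called in TNFDEX 2. In DEX it held 26.8, 41.3 and 30.2, and no TNF or NI library had a peak. Where called, the mean was 59.2 ± 35.4 in TNFDEX (SD, n = 2) and 32.8 ± 7.58 in DEX (SD, n = 3), and the groups overlapped. TNFDEX 1 alone stood far above the others, and its 95% exact Poisson interval was 73.0 to 96.6. The authors' fold over the input ran from 10.35 to 32.69 in the 5 peaks. TNFDEX 2, the library without the peak, has the shortest list of the libraries given Dex.

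The upstream Btg2 site had weaker neighbours within 2 kb. TNFDEX 1 held 32.3 at chr1:134098039-134098211. At chr1:134099162-134099338, TNFDEX 1 held 35.3 and DEX 1 held 15.4, and beside it TNF 1 held 15.2. All of these came from the low mitochondrial set, which gave 47 calls over all regions of the studied genes against 20 from the high set. No share over all regions is given for regions called in so few libraries. The last 2 regions of the locus were called in 1 library each, at 8.7 in TNF 2 and 9.7 in NI 3.

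At Btg1 the main site lies beyond the gene and was also called without Dex. It spans chr10:96624737-96624951, 2.0 kb past the end of Btg1 and 7.84 kb downstream of its start, and no other protein-coding gene lies within the window. It held 48.9 and 26.3 in TNFDEX 1 and TNFDEX 3, 32.7, 44.4 and 22.0 in the 3 DEX libraries, 39.5 in TNF 1, and 14.9 and 31.9 in NI 1 and NI 2. The means where called were 37.6 ± 16.0 in TNFDEX (SD, n = 2), 33.0 ± 11.2 in DEX (SD, n = 3) and 23.4 ± 12.0 in NI (SD, n = 2), and the ranges overlapped. Peaks were called in all 6 libraries of the low mitochondrial set and in 2 of the 5 of the high set. Of the 676 regions called in exactly 8 libraries, 242 (35.8%) included every library of the low set. A further region at chr10:96628425-96628612 held 15.6 in TNFDEX 3 and 21.4 in DEX 2, and the last held 16.2 in TNFDEX 1.

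GR peaks over the start sites of these genes were weak and came from 1 of the mitochondrial sets. The region over the Btg2 start, chr1:134078937-134079160, held 26.1 in TNFDEX 1, 13.9 and 20.9 in DEX 1 and DEX 2, and 17.8 and 21.3 in NI 1 and NI 2. The region over the Btg1 start, chr10:96616933-96617138, held 28.0 in DEX 2, 26.4 in TNF 1, and 22.8 and 26.1 in NI 1 and NI 2, and no TNFDEX library had a peak there. Together with the 2 start sites of Cdkn1a, the 4 regions gave 12 calls, at 13.9 to 28.0 normalized tags and 4.02-fold to 9.11-fold over the input. All 12 calls were in libraries of the low mitochondrial set and 0 in the high set, while over all 30 regions the low set had 47 calls and the high set 20. Of all regions called in exactly 4 libraries, 18.1% (457 of 2523) were called in libraries of the low set only, as the Btg1 start was. For exactly 5 libraries, as at the Btg2 start, the share was 11.8% (236 of 2005). The part of this split in these calls was not tested.

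The number of peaks per library within 50 kb gave the 1 quantity known in every library. Cdkn1a had 4, 3 and 4 peaks in TNFDEX, 2, 3 and 2 in DEX, 3 and 1 in TNF, and 1 in each NI library. With Dex against without, averaged over the backgrounds with and without TNF, Cdkn1a had 1.5 more peaks (exact two-sided stratified permutation p = 0.015, adjusted p = 0.156 over 17538 genes, smallest possible p 0.005). With TNF against without, it had 1.17 more (exact permutation p = 0.04, adjusted p = 1.0). Within mitochondrial sets the 2 differences were 1.5 (exact permutation p = 0.0139, the smallest possible there, adjusted p = 0.209) and 1.25 (exact permutation p = 0.037). Neither passed the adjustment, and in these tests a gene at the smallest possible p could not pass it either. The TNF difference was 0.67 without TNF 1 and 1.67 without TNF 2, and 0.17 with a 10 kb window and 0.5 with a 100 kb window. The Dex difference was 1.0 without TNF 2, 2.83 with a 100 kb window and 0.83 with peaks at least 8-fold over the input and surroundings, where its adjusted p by exact permutation was 0.0823. When every library was reduced to its 2522 strongest peaks, as many as the shortest list holds, the Dex and the TNF differences at Cdkn1a were both 0.

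The other 4 genes gave no larger differences. Btg2 had 4, 0 and 1 peaks in TNFDEX, 3, 2 and 1 in DEX, and 1 in each TNF and NI library, a Dex difference of 0.83 (exact permutation p = 0.38). That difference was 0.25 without TNFDEX 1, 1.25 without TNFDEX 2, and 0.17 with a 10 kb window or with peaks at least 8-fold over the input and surroundings. Btg1 had 2, 0 and 2 in TNFDEX, 1, 3 and 1 in DEX, 2 and 0 in TNF, and 2, 2 and 0 in NI, a Dex difference of 0.33 (exact permutation p = 0.77). Cdkn1b and Cdkn1c differed by -0.08 and 0.08 with Dex (exact permutation p = 0.94 for each). Across the 17538 genes with a peak in any library, 0 (0.0%) passed at an adjusted p under 0.05 for Dex by this permutation test, although 2918 had an unadjusted p under 0.05, and the smallest adjusted p was 0.115. That was the adjusted p of genes at the smallest possible p of 0.005, so no gene could pass and the 0 is not a negative result. With peaks at least 8-fold over the input and surroundings, 1106 of 8477 genes passed the same test for Dex, none of them among the 5. The smallest p was again 0.005 there, and its adjusted p was 0.0383. For TNF, 0 genes (0.0%) passed and 158 had an unadjusted p under 0.05, and there too a gene at the smallest possible p could not pass. The median Dex difference over the 17538 genes was 0.33, and 14.5% of them had one at least as large as that of Cdkn1a. Whether the Dex difference depended on TNF was tested by exact permutation as well, and none of the 5 genes had an adjusted p other than 1.0, with an unadjusted p of 0.88 for Cdkn1a and 0.23 for Cdkn1c, the smallest of the 5.

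Of the 5 windows, that of Btg1 was the one with a peak just beyond its border. The outermost peak inside the 50 kb lay 40.3 kb from Btg1 and held 16.2 in TNFDEX 1, and the nearest outside lay at 51.5 kb and held 9.9 in TNFDEX 3. For Cdkn1a the outermost peak inside lay at 44.7 kb (10.8 in TNFDEX 1) and the nearest outside at 58.3 kb (19.8 in NI 2). The nearest peaks outside the windows of Cdkn1b, Cdkn1c and Btg2 lay at 86.7, 78.5 and 83.5 kb and held 12.5, 6.9 and 11.6.

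Other genes of the cell cycle were read in the same way, from a list of 32. Of these, 12 had a region within 50 kb called in at least 2 TNFDEX libraries, 13 in DEX, 3 in TNF and 7 in NI, beside the shares over all genes given above. By class, a region in at least 2 DEX libraries was found at 3 of 7 cyclin genes, 2 of 4 kinase genes, 1 of 5 genes of the pocket proteins and E2F factors, 3 of 6 genes of growth arrest and the p53 axis, 4 of 6 genes of the BTG/TOB family and its partners, and 0 of 4 INK4 inhibitor genes. Cdkn2a and Cdkn2b, which encode INK4 inhibitors, and Ccnd2, a D-type cyclin gene, had no peak in any library. With Dex the number of peaks was higher at 19 of the 32 genes and lower at 8, with a median difference of 0.17, against 0.33 over all genes tested. None of the 32 passed the permutation test for Dex or for TNF after adjustment, which a gene at the smallest possible p could not pass either. For Dex, 5 had an unadjusted p under 0.05 by that test.

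The strongest site of that list lay near Ccne2, the gene of a cyclin that drives entry into S phase. At chr4:11147643-11147831, 42.7 kb from the gene, it held 277.9, 199.8 and 374.2 in TNFDEX and 176.0, 229.9 and 332.1 in DEX, and no TNF or NI library had a peak. Other genes near this site were not listed, so it need not act on Ccne2. A site inside Ccnd3, a D-type cyclin gene, held 104.9, 66.1 and 131.2 in TNFDEX and 115.5, 117.3 and 93.1 in DEX, again with no peak in TNF or NI. Inside Cdk6, the gene of a kinase that partners D-type cyclins, a site held 97.5, 39.1 and 81.4 in TNFDEX, 51.6, 62.2 and 97.4 in DEX and 12.7 in TNF 1. These 3 sites, like the one in Cdkn1a, had calls in all 6 libraries given Dex and none in NI. They were picked for their high mean signal in DEX, so their calls in DEX are partly set by that choice. No share over all regions is given for this pattern, which the strongest DEX sites near Tob2 and Gadd45g had as well. It does not set the named sites apart. The means in DEX were 246 ± 79.3, 109 ± 13.5 and 70.4 ± 24.0 (SD, n = 3 each), so that the Cdkn1a site, at 339 ± 78.6, was higher than all 3 in every DEX library.

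Sites near Mdm2 and Ccnd1 also had peaks without Dex. Mdm2, whose product degrades p53, had a site 18.8 kb away with 177.1, 52.4 and 131.2 in TNFDEX, 73.9, 104.5 and 194.7 in DEX, 46.1 and 14.7 in TNF, and 19.3 and 33.8 in 2 NI libraries. Ccnd1, another D-type cyclin gene, had a site 0.3 kb away with 50.2, 34.4 and 75.7 in TNFDEX, 42.1, 66.3 and 68.5 in DEX, 38.5 and 20.7 in TNF, and 34.7 and 50.3 in 2 NI libraries. At Mdm2 every library given Dex lay above every value without it, the closest being 52.4 in TNFDEX 2 and 46.1 in TNF 1. At Ccnd1 the groups overlapped. Both sites were also picked for their high mean signal in DEX, so their order is partly set by that choice. No share of regions with such an order is given. Other genes near these sites were not listed either, so the sites need not act on Mdm2 or Ccnd1.

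**Figure D3:**
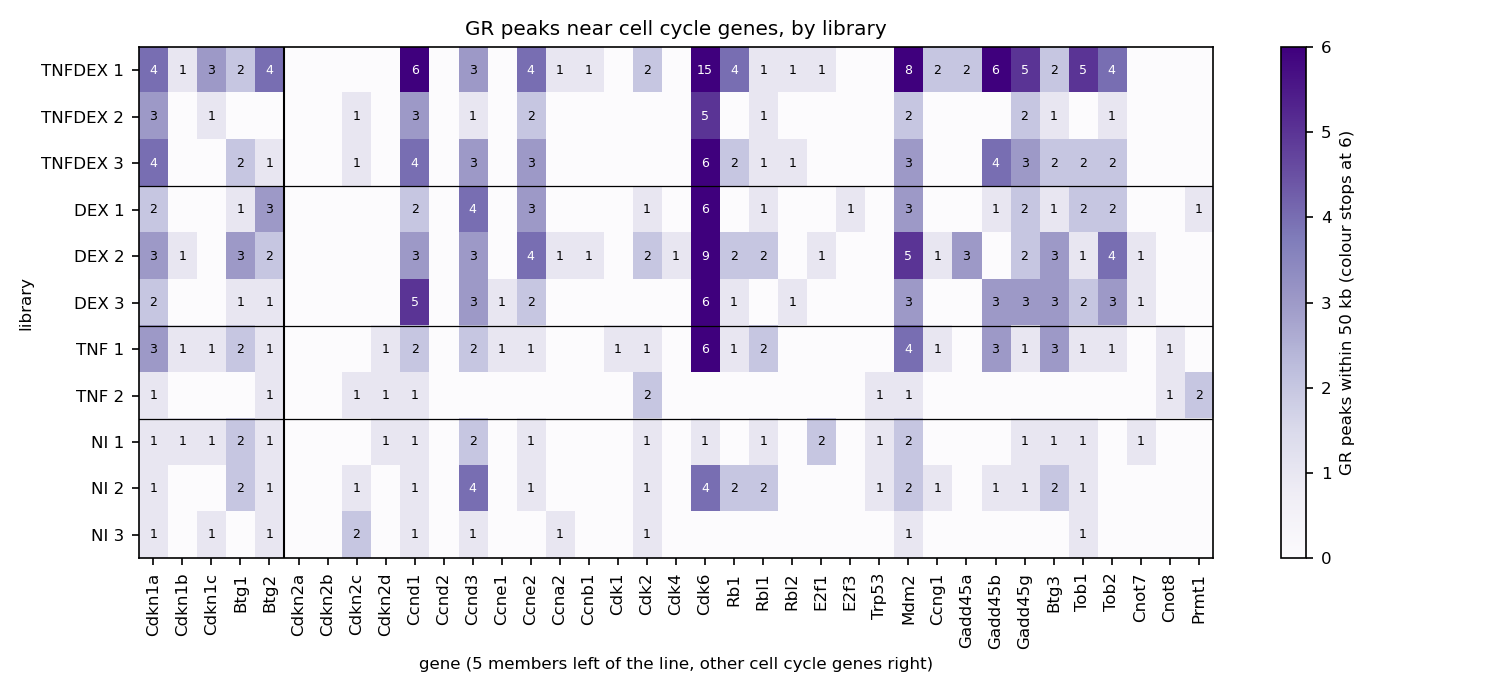
Number of GR peaks within 50 kb of each gene (columns) in each library (rows, with TNFDEX at the top, then DEX, TNF and NI). The 5 genes of this account stand left of the vertical line and the 32 other cell cycle genes right of it, empty cells are 0, and the colour stops at 6 peaks. Cdkn1a has at least 1 peak in every library, and Cdkn2a, Cdkn2b and Ccnd2 have none.

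Genes at least 1 Mb away whose GR signal followed the same pattern over the 11 libraries were listed by Pearson r of log2(summed normalized tag count within 50 kb + 1). Cdkn1a had a peak in all 11 libraries, Btg2 in 10, Btg1 in 8, Cdkn1c in 5 and Cdkn1b in 4. The libraries differ in depth and mitochondrial set, and no test was made. A library without a peak entered the sum as 0 although its level is not known, as NI 3, TNF 2 and TNFDEX 2 did for Btg1. For Cdkn1a the closest of 8728 genes were Arg2, a mitochondrial arginase gene, its neighbour Pigh, and Sgk1, a kinase gene that glucocorticoids induce in many tissues, with an r of 0.993 each. For Btg1 they were Oxgr1 (0.996), Mtrf1 (0.993) and Naa16 (0.993), and for Btg2 they were Rhob (0.942), Slc7a5 (0.939) and Fam189a1 (0.935). For Cdkn1b they were Cnbd2 (0.85), Gm5134 (0.84) and Ehd2 (0.84), and for Cdkn1c they were Ak8 (0.854), Wsb1 (0.844) and Zc3h18 (0.831).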

How the data were processed

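GR ChIP-seq was measured in 11 libraries, each with 1 deposited peak list, and 1 input sample with no list used here. The submitters' processing notes name HOMER 4.6, Bowtie 1.0.0, CASAVA 1.8 and the build mm10. Per the file headers, HOMER findPeaks ran in factor mode on each library against the input, with a false discovery rate of 0.001 and a minimum of 4-fold over both the input and the local 10000 bp. The deposited signal of a peak is its normalized tag count (tags per 20000000), and the deposited ratios are its folds over the input and over its surroundings. Per the file headers, the lists also give Poisson p-values, focus ratios as fractions, and scores, none of which entered a test. Because each library's tags were counted in that library's own peak windows, no count model was run. Peaks sharing at least 1 bp were merged into 47491 nuclear regions.

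Gene spans came from a RefSeq table of GRCm38.p6, without exons. Peak numbers per gene were tested by exact two-sided permutation within strata of the other treatment (200 arrangements), adjusted by Benjamini-Hochberg over 17538 genes. Signal was tested with limma 3.58.1 (R 4.3.3) on log2 normalized tag counts, with scaling by the trimmed mean of M values over regions called in every library compared, and no pseudocount. Of several peaks of a library in a region, the strongest counted. Python 3.11.15, numpy 2.4.6, pandas 2.3.3 and scipy 1.17.1 were used. The tests were also run on simulated data, where the permutation test was scored by direction and unadjusted p only, not after adjustment.

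The members and lists were chosen with earlier results of these data known. All 5 genes are named. A region is given in every library when it is the strongest of its gene in a group, separates 2 groups or passes limma, and weaker regions were added where they follow the mitochondrial tags. Of the 32 other genes, those passing the peak number test for Dex, and failing that the 5 strongest in DEX, are named. Similar genes are the 3 with the highest r.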

Additional observations from a re-analysis of the deposited data

How the results depend on the processing

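Of 326 values recomputed under other settings, 293 did not reverse their direction, cross the threshold or change their count. The 293 include differences in peak number that fell to 0, which kept no direction. With the 2522 strongest peaks of each library, the Cdkn1a difference fell from 1.5 to 0 for Dex. For TNF it fell from 1.167 to 0. The Cdkn1a site was called in every DEX and no NI library, and in every TNFDEX and no TNF library, under each setting tried. The count of regions separating DEX from NI was 1, without the Btg2 site, with a 10 kb window, with peaks at least 8-fold over the input and surroundings, and with the 2522 strongest peaks of each library. Leaving out single libraries gave ranges of 1 to 2 for regions separating TNFDEX from TNF, 0 to 5 for TNF against TNFDEX, 0 to 5 for TNF against NI and 0 to 1 for NI against TNF. No shares over all regions are given for these counts, some of which rest on a single TNF library. Regions passing limma for TNFDEX against TNF ranged from 0 to 1.

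At a threshold of 8-fold, 1106 of 8477 genes passed the peak number test for Dex, against 0 of 17538 with the authors' threshold. None of the 5 genes was among them. Among differences in peak number that did not pass, these changed sign. A 10 kb window gave -0.083 for Dex at Cdkn1c. A 100 kb window gave 1.25 for Dex and -0.25 for TNF at Cdkn1b, and 0.917 and 0.083 for TNF at Btg1 and Btg2. The 8-fold threshold gave 0.167 and strata by mitochondrial tags 0.25 for TNF at Btg2. The strongest peaks alone gave, for Dex, -0.167 at Cdkn1c, -0.667 at Btg1 and -0.25 at Btg2, and for TNF -0.167 at Cdkn1c. Without single libraries, the Dex difference ranged over -0.333 to 0.167 at Cdkn1b, -0.333 to 0.417 at Cdkn1c and -0.167 to 0.833 at Btg1. The TNF difference ranged over -0.167 to 0.333 at Cdkn1b, -0.833 to 0.167 at Btg1 and -0.75 to 0.25 at Btg2. The cause was not tested.

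The log2 change of the Cdkn1a site between TNFDEX and DEX ranged from -0.369 to -0.142 without single libraries. With the replicate number as a block it was -0.288 (SE 0.277, limma adjusted p = 0.795), and the block changed no call. Over the 4022 regions, deviations of TNFDEX and DEX libraries with the same number correlated at 0.367, -0.364 and 0.572, so the numbers were not taken to pair the samples, and TNFDEX 1 correlated best with DEX 2 (0.545). Weak peaks rest on few tags, and a region without a call may have failed on tags or on a ratio.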
